A study of Thlaspi arvense with 6 samples.

Results

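Loci of the actin cytoskeleton were examined in the nectaries of pennycress (Thlaspi arvense), the glands at the petal bases that release floral nectar. A locus was taken into the set when the description of its best Arabidopsis match contained a word for actin, profilin, formin, myosin, villin, fimbrin or the Arp2/3 complex, and loci described as unknown proteins were left out. This gave 79 of the 12335 loci with a predicted pennycress protein. Of these, 7 matched by letters alone (for example enzymes "acting on" a bond), which left 72 loci of actin and its partners or of proteins named after them. No profilin locus was among them, and profilins were found only as contigs without a predicted protein.

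Actin filaments are polymers of a small globular protein that plant cells build and take apart continually. Profilin keeps free actin ready for use, formins and the Arp2/3 complex start new filaments, capping protein closes their ends, and actin depolymerizing factors (ADFs) sever and recycle them. Villins and fimbrins tie filaments into bundles, and myosins walk along them and drive the streaming of organelles and vesicles. In secretory plant cells the filaments serve as tracks for vesicle traffic and shape the growth of the cell wall.

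RNA was measured in 3 samples of mature nectaries, which secrete nectar and correspond to stages 14 to 15 of the Arabidopsis flower, and in 3 samples of immature, pre-secretory nectaries of stages 11 to 12. All plants were of cultivar MN108 and about 40 days old. Each sample was a pool of about 100 hand-dissected nectaries per the labels, taken 4 to 8 h after dawn, and each replicate came from its own set of plants. The stages differ in age and in secretion together, so the effects of these cannot be told apart, and in bulk tissue fewer cells of a type cannot be told apart from less RNA per cell.

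Values are read counts per locus, upper-quartile normalized by the authors and summed here over the contigs of a locus, and sample values are always given for replicates 1, 2 and 3. The reads in the contigs of the deposited data were estimated at approximately 11.7 to 16.9 M per sample, which is not the full sequencing depth. Of these, 4.32 to 14.7 M lay outside ribosomal RNA and organelle transcripts, with the least in mature replicate 2, where ribosomal RNA took 62.9% of the counts. The actin loci held 0.429% to 0.475% of the counts of all loci in the 6 samples, or approximately 18.5 k to 63.9 k reads. The 3 nectary markers (CRABS CLAW, SWEET9 and cell wall invertase 4 by their Arabidopsis matches) summed to 244601 to 263551 counts in mature and 43481 to 74020 in immature samples. Of the 21 listed pollen and anther genes, 7 were found, and they summed to 3119 to 24215 counts in mature and 379 to 542 in immature samples. Much of this sum was Ta19673, with 13877, 1583 and 4424 counts in the mature samples. Ta19269 overlapped between the stages, with 96, 43 and 96 counts in mature and 84, 82 and 137 in immature samples, and the other loci found were higher without overlap. Phloem markers (3 of 5 found) summed to 95 to 133 counts in mature and 506 to 1020 in immature samples. Only Ta09960 and Ta09961 were lower without overlap. The phloem locus Ta15852 overlapped, with 87, 70 and 118 counts in mature and 102, 220 and 75 in immature samples. The 1 stomatal marker found of 4 had 72 to 119 counts in mature and 140 to 175 in immature samples, and none of 4 xylem markers was found.

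The loci of the actin cytoskeleton moved in both directions between the stages. Of the 77 loci abundant enough to be tested, 16 (20.8%) rose and 23 (29.9%) fell toward the mature stage at a limma adjusted p below 0.05, while 38 did not pass. Of all 11780 tested loci, 28.4% were higher and 35.9% lower, so both shares were below those of the background. A ratio of the means above 2 in addition was reached by 4 loci (5.19%, against 13.8% of all loci), and a ratio below 0.5 by 14 (18.2%, against 23.0% of all loci). The stages did not overlap for 45 of the tested loci (58.4%, against 70.1% of all loci), with the mature samples above in 19 and below in 26. The median log2 fold change was -0.13, against -0.09 over all tested loci, and the summed counts of the 79 loci were 44888, 36031 and 41803 in mature and 37626, 38193 and 40063 in immature samples, which overlap. Without the 7 loci matched by letters alone, 16 were higher and 19 lower of 70. The split depended on scaling: with the samples scaled to their totals outside ribosomal RNA and organelles, 13 were higher and 33 lower (28.3% higher among the called, against 41.0% as deposited), where the median of all loci shifted to -0.26. Other scalings moved the split the other way. Median of ratios scaling gave 21 higher and 23 lower (47.7% higher among the called), and quantile normalization 20 and 22 (47.6%), with medians of all loci of 0.03 and 0.04. Of the 39 called loci, 27 kept their call in every alternative that gave them a value.

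**Figure D1:**
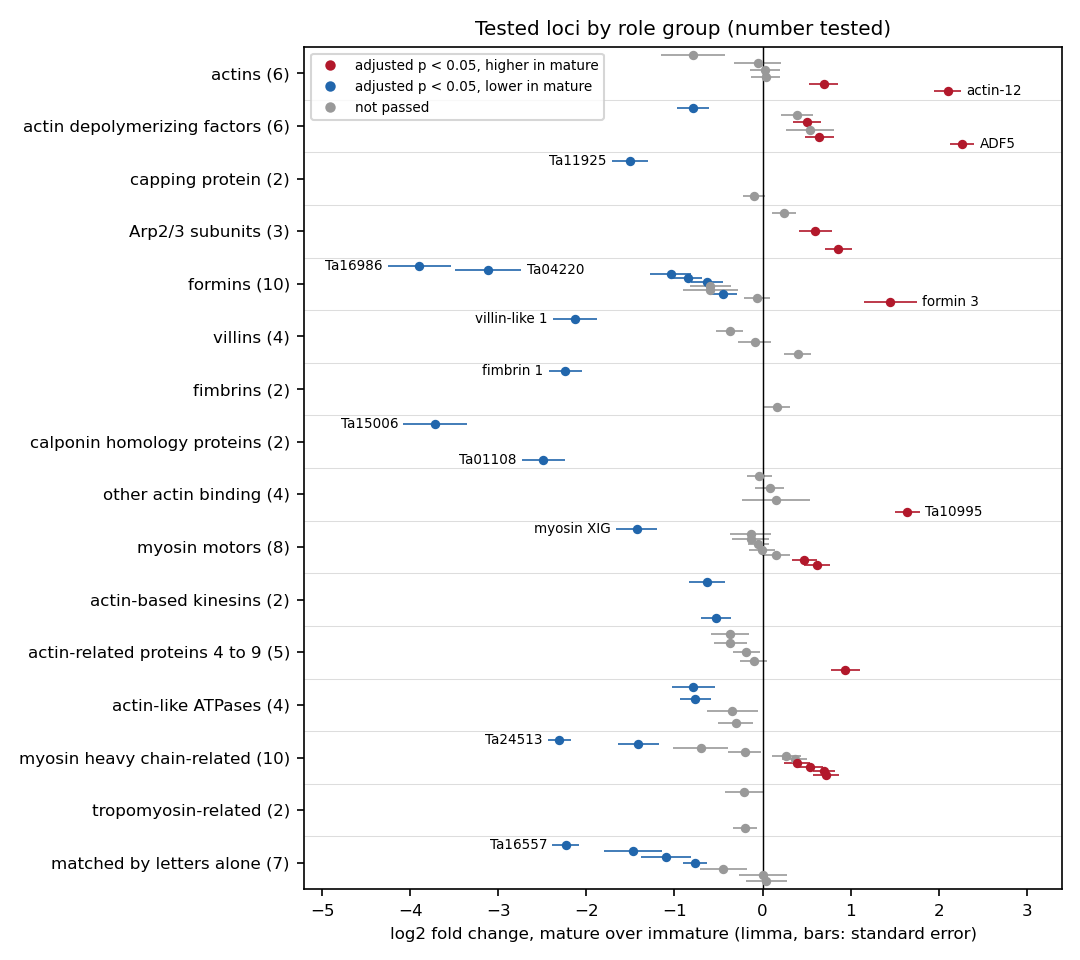
Log2 fold change (mature over immature, x axis) of the 77 tested loci, by role group (y axis, with the number tested), with the standard error from limma as bars. The 2 loci furthest to the right are ADF5 (2.27) and actin-12 (2.10), and the locus furthest to the left is the formin Ta16986 (-3.90).

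The 6 actin loci kept about the same summed level while their makeup changed. Their sum was 9532 ± 1782 normalized counts at the mature stage and 8206 ± 863 at the immature stage (mean ± SD, n = 3 each), with overlapping samples. Arabidopsis has a vegetative class of actins (ACT2, ACT7 and ACT8) and a reproductive class (ACT1, ACT3, ACT4, ACT11 and ACT12), which is typical of pollen and ovules. The most abundant locus, Ta00885, matches actin 7, the vegetative actin of young and hormone-responsive tissue. It had 4832, 3684 and 4920 counts in mature and 4310, 4120 and 4666 in immature nectaries, and the stages overlapped (log2 fold change 0.03, SE 0.17, adjusted p = 0.902). The vegetative actin 2 locus Ta01238 did not pass either (-0.06, SE 0.27, adjusted p = 0.866), nor did Ta12494, matching actin-11 of the reproductive class (0.04, SE 0.16, adjusted p = 0.863).

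The reproductive-class locus Ta07851, matching actin-12, had 2574, 1959 and 2563 counts in mature nectaries, against 506, 571 and 563 in immature nectaries. Every mature sample lay above every immature one, and the mean was 4.33-fold higher in mature nectaries (log2 fold change 2.10, SE 0.15, limma adjusted p = 1.69e-05). The locus took 25.0% ± 1.12 of the counts of the 6 actin loci at the mature stage and 6.70% ± 0.764 at the immature stage (mean ± SD, n = 3 each). Ta02129, whose contigs match actin 1 and actin 3 of the same class, was on the other side. It had 1381, 520 and 1216 counts in mature and 1446, 1421 and 2209 in immature nectaries, with no overlap, but did not pass the test (-0.79, SE 0.36, adjusted p = 0.0877). It passed without mature replicate 1 (-1.06, adjusted p = 0.0318), with scaling to the total outside ribosomal RNA and organelles (-0.94, adjusted p = 0.0187) and with quantile normalization (-0.83, adjusted p = 0.0251). Over all alternatives, however, the change ran from -1.06 to -0.35 and the limma adjusted p reached 0.252, so the decrease is uncertain. Its share of actin counts was 10.5% ± 3.14 in mature and 20.4% ± 3.18 in immature nectaries. The small actin 8 locus Ta16104 had 125, 136 and 134 counts in mature and 87, 80 and 76 in immature nectaries and was higher in mature nectaries (0.70, SE 0.17, adjusted p = 0.00645, and 1.41 after quantile normalization). This locus met the minimum for the test only through the mature samples. A larger contig matching actin 8, summed into Ta01238, had 321, 97 and 248 counts in mature and 199, 167 and 260 in immature nectaries, which overlap. Actin 8 as a whole was thus not shown to be higher. Plant actins are nearly identical in their coding sequence, so reads assigned by blastn may be split between these loci, and the level of each is uncertain to that extent. Whether the pollen and anther markers, which were higher in sum in mature samples, took part in the level of actin-12 was not tested. Over the mature samples the sum of those markers ranged from 3119 to 24215 counts and actin-12 from 1959 to 2574.

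**Figure D2:**
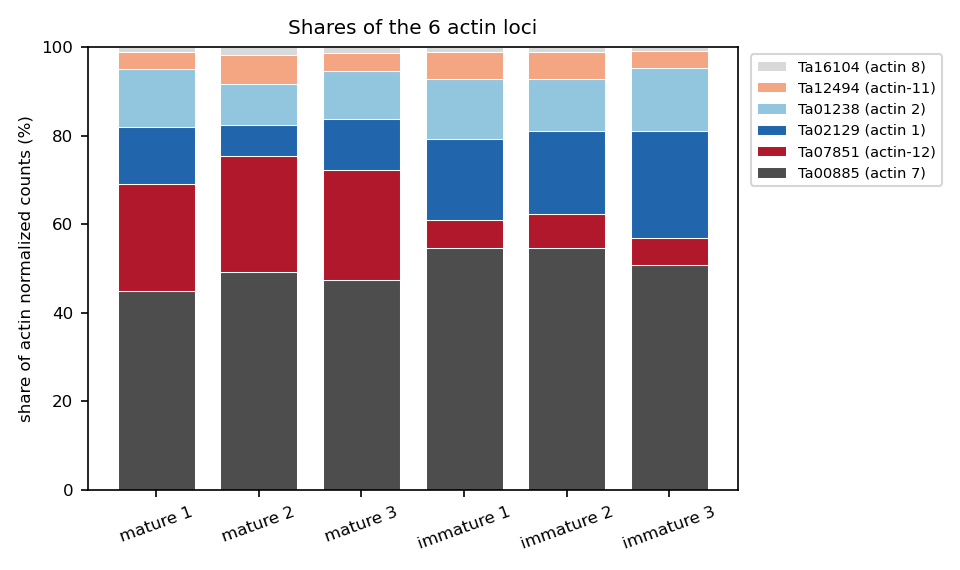
Share of each actin locus in the normalized counts of the 6 actin loci (y axis, %) in each of the 6 samples (x axis). Actin-12 (Ta07851) held 24.0%, 26.2% and 24.7% in the mature samples, against 6.41%, 7.57% and 6.13% in the immature samples, and actin 7 held the largest share in all 6.

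Profilin binds actin monomers and hands them to growing filament ends. The 4 profilin contigs had no predicted protein and were therefore outside the 79 loci, and they were tested in a fit of loci and such contigs together, added after the data were seen, in which 28.3% of 12290 features were higher in mature nectaries. The profilin 2 contig had 2428, 1896 and 2187 counts in mature and 1281, 1285 and 1267 in immature nectaries and was higher in mature nectaries (log2 fold change 0.76, SE 0.14, adjusted p = 0.00201). The larger profilin 1 contig had 1536, 1307 and 1433 counts in mature and 1006, 901 and 979 in immature nectaries and was likewise higher (0.57, SE 0.13, adjusted p = 0.00599). Both had every mature sample above every immature one. The profilin 3 contig, with 1359, 1216 and 1661 counts in mature and 1427, 1328 and 1383 in immature nectaries, overlapped (0.02, SE 0.15, adjusted p = 0.908). A second profilin 1 contig had 79 to 105 counts in mature and 48 to 61 in immature nectaries and was too low to test.

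The actin depolymerizing factors were higher in sum in mature nectaries. The 6 loci added up to 9975 ± 1234 counts at the mature stage and 6267 ± 474 at the immature stage (mean ± SD, n = 3 each), with no overlap. Of the 6 loci, 3 were higher and 1 lower (2 higher with scaling to the total outside ribosomal RNA and organelles), against 28.4% and 35.9% of all tested loci. ADF5, unlike most of its family, is known in Arabidopsis to bundle filaments rather than sever them. Its locus Ta12022 had 1012, 887 and 968 counts in mature nectaries, against 204, 214 and 176 in immature nectaries, and this 4.83-fold difference was the largest increase among the 77 tested loci (log2 fold change 2.27, SE 0.14, adjusted p = 7.37e-06). Ta26108, whose contigs match ADF1 and ADF4, held the most counts of all 79 loci. These severing factors had 6815, 5275 and 5568 counts in mature and 3872, 3925 and 3451 in immature nectaries, again without overlap (0.64, SE 0.17, adjusted p = 0.00948). A second ADF4 locus, Ta26109, was higher by 0.50 (adjusted p = 0.0213) but lost the call in 4 alternatives, among them the fits without immature replicate 1 (adjusted p = 0.0519) and without immature replicate 3 (adjusted p = 0.0549). Reads may be shared between the 3 ADF4 loci. The third, Ta19843, and ADF6 (Ta20384) did not pass, but both did without mature replicate 2 (adjusted p = 0.00536 and 0.0300), which made 5 of 6 higher. In that fit the median over all tested loci was 0.0006, against -0.09 with all samples. The share of all loci called higher in it is not given here. ADF11 (Ta18149), a factor of root hairs in Arabidopsis, went the other way with 145, 103 and 123 counts in mature and 238, 211 and 190 in immature nectaries (-0.79, SE 0.18, adjusted p = 0.005).

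**Figure D3:**
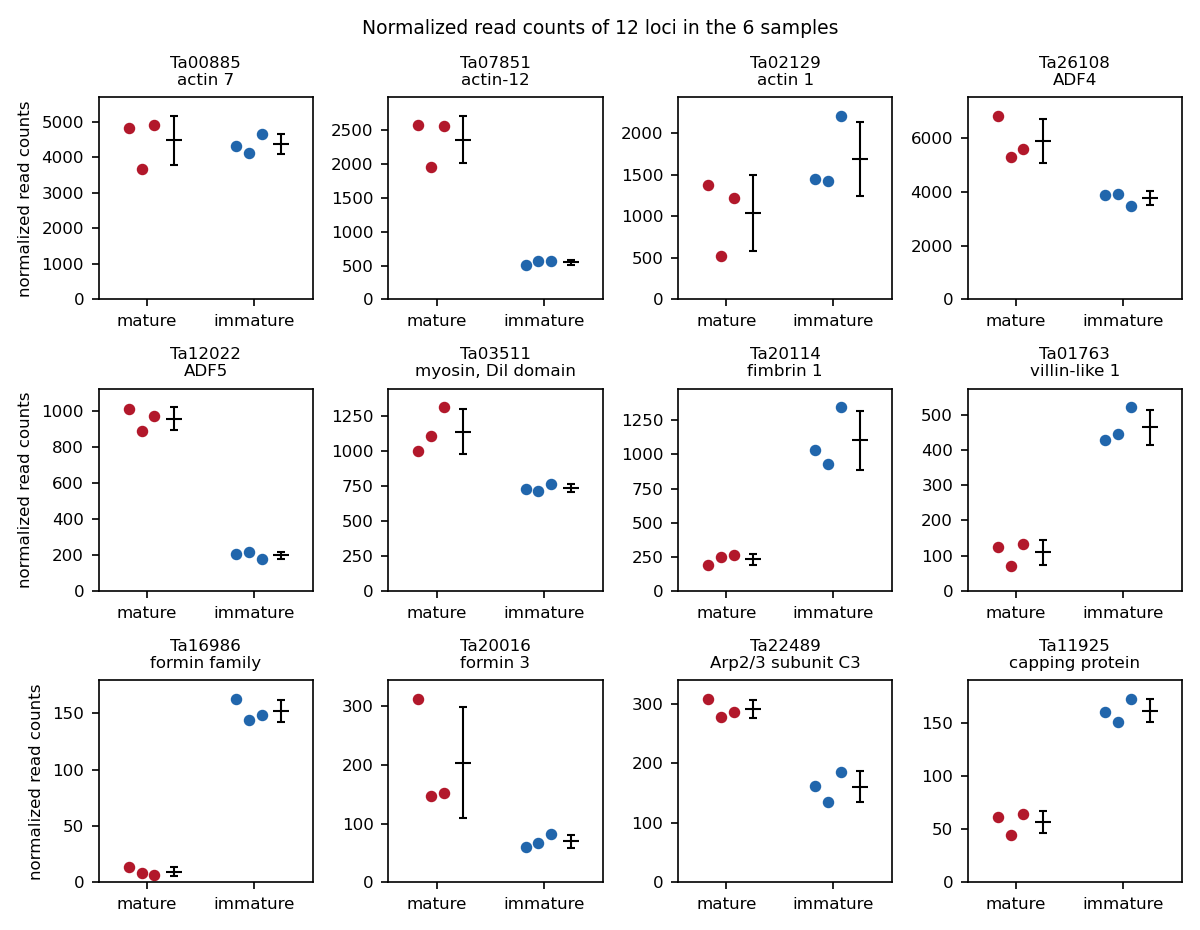
Normalized read counts (y axis, from 0) of 12 loci in mature (left, red) and immature (right, blue) nectaries. Points are the 3 samples of a stage, and the bars beside them show the mean ± SD. Actin 7 overlaps between the stages, actin-12 and ADF5 are higher in mature nectaries, and fimbrin 1, villin-like 1, the formin Ta16986 and the capping protein Ta11925 are lower.

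Among the 8 loci of fimbrins, calponin homology proteins and villins, 4 were lower in mature nectaries and none was higher. Of all tested loci, 35.9% were lower and 28.4% higher, and so small a group was not tested against these shares. Fimbrin cross-links filaments into tight bundles, and the locus of fimbrin 1, Ta20114, had 188, 247 and 263 counts in mature nectaries, against 1035, 928 and 1345 in immature nectaries. The stages lay far apart, with a mean 4.74-fold lower in mature nectaries (log2 fold change -2.24, SE 0.19, adjusted p = 3.44e-05). The other fimbrin, Ta06483, matches a fimbrin of Arabidopsis pollen (AT5G35700). It had 493 to 671 counts in mature and 466 to 533 in immature nectaries and did not pass (0.16, SE 0.15, adjusted p = 0.378). Both loci described as calponin homology proteins match Arabidopsis genes counted in the fimbrin family (AT5G55400 and AT5G48460). Ta15006 had 17, 8 and 20 counts in mature and 185, 177 and 231 in immature nectaries (-3.71, SE 0.36, adjusted p = 6.57e-05). Ta01108 had 24, 23 and 20 counts in mature and 146, 127 and 117 in immature nectaries (-2.49, SE 0.25, adjusted p = 7.11e-05). Neither had a mature sample near an immature one, and both met the minimum for the test only through the immature samples. The size of these 2 changes depended on the processing: Ta15006 was at -3.08 with a pseudocount of 10 and Ta01108 at -1.66 after quantile normalization.

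Villins bundle filaments and, in most members, sever them in response to calcium. Villin-like 1, known in Arabidopsis as a bundling villin that lacks the response to calcium, was represented by Ta01763 with 124, 70 and 134 counts in mature nectaries, against 427, 446 and 521 in immature nectaries. The mean was 4.25-fold lower in mature nectaries, with no overlap (-2.13, SE 0.25, adjusted p = 0.000157). The other 3 villins did not pass the test. The most abundant of them, villin 2 (Ta18966), had 794, 570 and 719 counts in mature and 487, 516 and 566 in immature nectaries, with every mature sample above (0.40, SE 0.16, adjusted p = 0.0556). It passed without mature replicate 2 (0.53, adjusted p = 0.00984), with median of ratios scaling (0.50, adjusted p = 0.00325) and with quantile normalization (0.37, adjusted p = 0.0132). Villin 4 (Ta09261) had 255 to 358 counts in mature and 389 to 409 in immature nectaries (-0.37, adjusted p = 0.0625), and it passed without mature replicate 3 (adjusted p = 0.0358) and with scaling to the total outside ribosomal RNA and organelles (-0.53, adjusted p = 0.0071), either of which made 2 villins lower. The phloem markers were also lower in sum in mature samples, though not all of them were, and their part in the lower bundling loci was not tested.

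Formins start unbranched filaments and stay at the growing end. Of the 10 tested loci described as formins, 1 was higher and 6 were lower in mature nectaries, where 35.9% of all tested loci were lower. A further 2 loci described only as actin binding, Ta00718 (AT5G07740) and Ta10394 (AT5G58160), match genes known in Arabidopsis as formins, and neither passed the test (-0.04, adjusted p = 0.841, and 0.08, adjusted p = 0.680). The 2 largest decreases were in loci described only by the formin homology domain. Ta16986 (AT5G48360) had 14, 8 and 7 counts in mature nectaries, against 163, 144 and 149 in immature nectaries, the largest decrease of the 77 tested loci (log2 fold change -3.90, SE 0.36, adjusted p = 4.76e-05, and -3.06 with a pseudocount of 10). Ta04220 (AT3G07540) had 21, 33 and 16 counts in mature and 314, 193 and 135 in immature nectaries (-3.12, SE 0.38, adjusted p = 0.000198, and -2.52 after quantile normalization). For both, the mature samples held no more than 33 counts and the immature samples no fewer than 135, so both met the minimum for the test only through the immature samples. The 4 other loci that were lower had log2 fold changes of -0.44 to -1.04. Among them was Formin Homology 14 (Ta12637), which joins actin and microtubules in Arabidopsis. It had 799, 615 and 684 counts in mature and 869, 907 and 1077 in immature nectaries (adjusted p = 0.0334), and its call was lost without each of 5 samples in turn (adjusted p 0.0561 to 0.0987) and held only without mature replicate 1. In addition, 1 of its 2 contigs matches a neighbouring cytochrome P450 gene and held 436, 253 and 235 of the counts in mature and 356, 410 and 449 in immature nectaries. The contig that matches the formin had 363, 362 and 449 counts in mature and 513, 497 and 628 in immature nectaries, and alone it was also lower (-0.48, adjusted p = 0.0265). The calls of Ta21363 (formin homology 1, -0.63) and Ta18522 (-0.85) were also lost in alternatives, the first without immature replicate 1 (adjusted p = 0.0691) or 3 (adjusted p = 0.0576) and the second with its most abundant contig alone (adjusted p = 0.0623).

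Formin 3 was the only formin that was higher among those tested, and it is known in Arabidopsis for building actin cables in pollen tubes. Its locus Ta20016 had 313, 148 and 152 counts in mature nectaries, against 61, 67 and 82 in immature nectaries. Every mature sample was above the immature ones, and replicate 1 stood apart from the other mature samples (2.92-fold, log2 fold change 1.45, SE 0.30, adjusted p = 0.00336, and 2.13 after quantile normalization). The locus met the minimum for the test only through the mature samples. The sum of the pollen and anther markers was also highest in mature replicate 1, and their part in formin 3 was not tested. Formin homologue 4 (Ta13034), with 123, 82 and 89 counts in mature and 47, 56 and 50 in immature nectaries, lay below the minimum for the test.

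Capping protein is a heterodimer that closes the fast-growing end of a filament, and its subunit loci differed. Ta11925, matching the gene of the beta subunit (AT1G71790), had 62, 45 and 64 counts in mature and 161, 151 and 173 in immature nectaries, with a mean 2.84-fold lower in mature nectaries (-1.50, SE 0.20, adjusted p = 0.000348). It met the minimum for the test only through the immature samples. The more abundant Ta01434, matching the alpha subunit (AT3G05520), had 485, 525 and 473 counts in mature and 561, 479 and 547 in immature nectaries, which overlap (-0.10, SE 0.13, adjusted p = 0.536).

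The Arp2/3 complex starts branched filaments on the side of existing ones. All 3 loci named as its subunits had every mature sample above every immature one, as did 3643 of all 11780 tested loci. Of the 3, 2 passed the test as higher, against 28.4% of all tested loci. Ta22489, matching subunit C3, had 308, 278 and 286 counts in mature and 161, 135 and 186 in immature nectaries (log2 fold change 0.86, SE 0.16, adjusted p = 0.00167). Ta19075, subunit C1A, was higher by 0.60 (SE 0.19, adjusted p = 0.0223), and its call was lost without mature replicate 3 (adjusted p = 0.0835), without immature replicate 2 (adjusted p = 0.0511) or 3 (adjusted p = 0.0731) and with scaling to the total outside ribosomal RNA and organelles (adjusted p = 0.102). ARP2 (Ta04882), an actin-related subunit of the core of the complex, had 256, 272 and 285 counts in mature and 241, 238 and 208 in immature nectaries (0.24, SE 0.13, adjusted p = 0.139). A further core subunit stood on the other side. Ta14762 is described only as an actin-like ATPase, but its match AT1G13180 is known in Arabidopsis as ARP3. It had 127, 152 and 173 counts in mature and 257, 220 and 291 in immature nectaries, without overlap (-0.76, SE 0.17, adjusted p = 0.00536).

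Upstream regulators that no word of the rule selects were taken from a list of 26 loci for other proteins that act on actin or its regulators. Of the 25 tested, 5 (20%) were higher and 14 (56%) lower, against the 28.4% and 35.9% of all tested loci. The SCAR/WAVE complex, which switches the Arp2/3 complex on, was lower in 7 of 8 tested loci and higher in none, and 1 of the 7 (Ta02999) lost its call after quantile normalization (adjusted p = 0.649). Ta02999, Ta07766, Ta09918 and Ta19937 met the minimum for the test only through the immature samples. They could therefore hardly enter this count other than as lower, which limits what it and their p-values show. Ta07766 (ABL interactor-like protein 2) had 50, 66 and 67 counts in mature nectaries, against 277, 284 and 259 in immature nectaries (log2 fold change -2.16, SE 0.17, adjusted p = 2.63e-05). Ta19937 (a SCAR family protein) had 66, 31 and 64 counts in mature and 330, 380 and 439 in immature nectaries (-2.88, SE 0.29, adjusted p = 8.09e-05). SPIKE1 is the exchange factor that loads ROP GTPases, which in turn act on SCAR/WAVE. Its locus Ta10657 had 162, 95 and 136 counts in mature and 550, 493 and 629 in immature nectaries, a mean 4.25-fold lower in mature nectaries (-2.11, SE 0.21, adjusted p = 7.18e-05). None of Ta07766, Ta19937 and Ta10657 had overlapping stages.

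Of the 4 ROP GTPases, 1 was higher and 1 lower, against 28.4% and 35.9% of all tested loci. The call of the lower one (Ta03979, -0.48, adjusted p = 0.0361) was lost in 5 alternatives, among them the fits without mature replicate 3 (adjusted p = 0.126) and without immature replicate 1 (adjusted p = 0.142) or 2 (adjusted p = 0.108). ROP1 (Ta25536), a GTPase best known from pollen tube tips in Arabidopsis, had 1216, 1122 and 1194 counts in mature and 671, 612 and 667 in immature nectaries (0.86, SE 0.12, adjusted p = 0.000467, and 1.64 with its most abundant contig alone). NET proteins link actin to membranes. The 6 KIP1-like loci of this family were split into 3 higher and 3 lower, against 28.4% and 35.9% of all tested loci. Ta23512 (AT2G22560) had 452, 558 and 535 counts in mature nectaries, against 77, 73 and 85 in immature nectaries, a 6.57-fold difference (2.70, SE 0.15, adjusted p = 5.56e-06). It met the minimum for the test only through the mature samples. Ta17846 (AT4G02710) had 746, 677 and 704 counts in mature and 208, 205 and 218 in immature nectaries (1.75, SE 0.12, adjusted p = 1.3e-05). For these 3 loci no mature sample overlapped with an immature one.

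**Figure D4:**
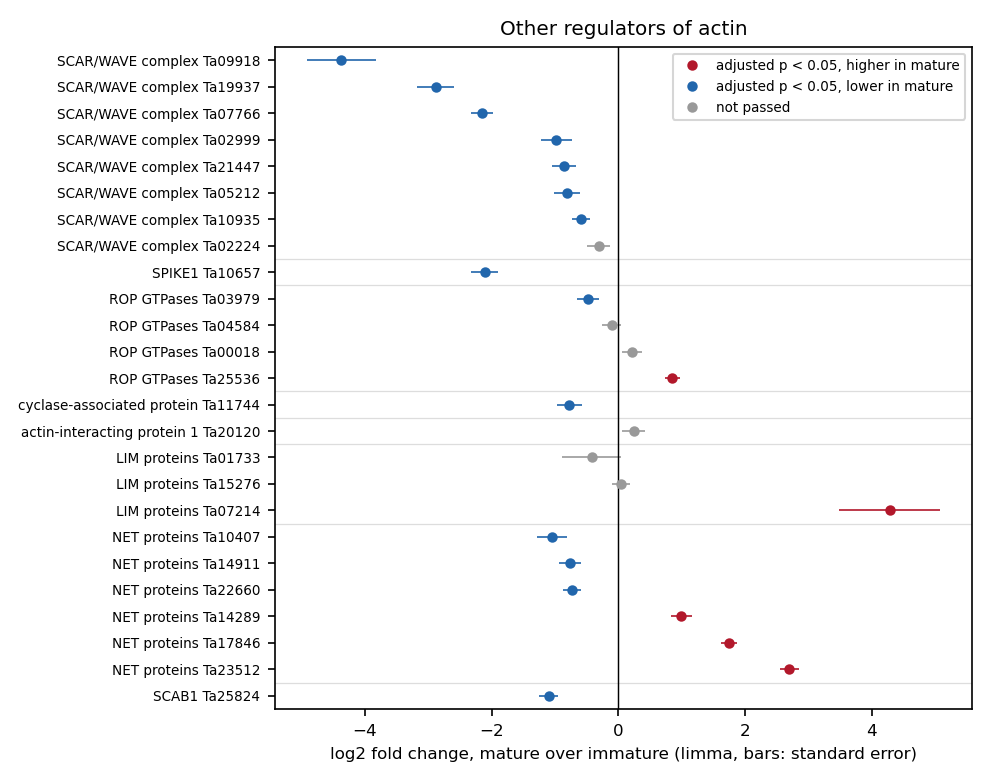
Log2 fold change (mature over immature, x axis) of the 25 tested loci of other regulators of actin (y axis, by protein family), with the standard error from limma as bars. All 8 tested SCAR/WAVE loci lie to the left of 0 and 7 passed the test, and the NET loci lie on both sides.

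Myosins are the motors of the filaments. Of the 8 motors, 2 were higher and 1 was lower at the mature stage, against 28.4% and 35.9% of all tested loci. The most abundant, Ta08536, matching a myosin of class VIII named myosin 2, had 1988, 1966 and 1429 counts in mature and 1964, 2556 and 1472 in immature nectaries, which overlap (-0.13, SE 0.23, adjusted p = 0.628). Ta03511 (AT5G20490) matches myosin XI-K, a main driver of organelle movement in Arabidopsis. It had 1001, 1107 and 1315 counts in mature and 733, 714 and 769 in immature nectaries, without overlap (0.62, SE 0.14, adjusted p = 0.00574). Ta02694, a putative myosin (AT4G33200), was higher by 0.47 (adjusted p = 0.0185) and lost the call without mature replicate 3 (adjusted p = 0.0699) or immature replicate 1 (adjusted p = 0.0797). Myosin XIG (Ta16481) was the motor that was lower, with 85, 58 and 107 counts in mature and 206, 224 and 228 in immature nectaries (-1.43, SE 0.23, adjusted p = 0.000873). It met the minimum for the test only through the immature samples. The summed counts of the 8 motors, 5157, 4901 and 5154 in mature and 4649, 5367 and 4480 in immature nectaries, overlapped.

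Kinesins for actin-based chloroplast movement hold chloroplasts by short filaments at the plasma membrane. Ta00952 (KAC1) had 214, 206 and 231 counts in mature and 273, 289 and 389 in immature nectaries (-0.53, SE 0.17, adjusted p = 0.0226), and the call was lost without immature replicate 3 (adjusted p = 0.0683) and after quantile normalization (adjusted p = 0.0623). Ta02550 (KAC2) was lower by a similar amount (-0.63, adjusted p = 0.0272), which was lost without immature replicate 1, 2 or 3 (adjusted p 0.0531 to 0.0940) and after quantile normalization (adjusted p = 0.0546).

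Actin-related proteins 4 to 9 resemble actin but mostly work in the nucleus, several of them in chromatin remodelling complexes. Of all tested loci, 28.4% were higher and 35.9% lower. Only ARP8 (Ta20304), which carries an F-box, passed the test among the 5 loci. It had 945, 702 and 852 counts in mature and 403, 395 and 501 in immature nectaries and was 1.92-fold higher (0.94, SE 0.16, adjusted p = 0.00133). ARP4 (Ta01362), which had the highest mean of the 5 over all samples, had 696, 438 and 567 counts in mature and 734, 634 and 793 in immature nectaries (-0.36, SE 0.19, adjusted p = 0.125). With scaling to the total outside ribosomal RNA and organelles, 3 of the 5 were lower, ARP4 among them (-0.52, adjusted p = 0.00564), and ARP4 was also lower without mature replicate 1 (-0.52, adjusted p = 0.0297). Under that scaling the median over all tested loci was -0.26, against -0.09 as deposited. The share of all loci called lower under it is not given here. Among the other actin-like ATPases, Ta08946 had 606, 331 and 415 counts in mature and 733, 628 and 930 in immature nectaries. Its match, AT1G80460, is known as a glycerol kinase and shares only the fold of actin. The difference (-0.79, SE 0.24, adjusted p = 0.0207) was lost in 4 of the 6 fits that left out 1 sample, without mature replicate 2 (adjusted p = 0.0513) or 3 (adjusted p = 0.0643) and without immature replicate 1 (adjusted p = 0.0531) or 3 (adjusted p = 0.0759).

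A group of 11 loci is described as myosin heavy chain-related, which refers to long coiled coils and not to a motor. Of the 10 tested, 4 were higher and 2 lower in mature nectaries, against 28.4% and 35.9% of all tested loci. The most abundant, Ta13215 (AT1G64330), had 961, 902 and 862 counts in mature and 580, 530 and 569 in immature nectaries (0.70, SE 0.12, adjusted p = 0.0014). Ta00706 (AT5G07890) had 269, 255 and 224 counts in mature and 137, 168 and 149 in immature nectaries (0.72, SE 0.15, adjusted p = 0.00333). The calls of the other 2 that were higher, Ta13401 and Ta06451, were lost without mature replicate 3 (adjusted p = 0.0587 and 0.139) and without immature replicate 1 or 2 (adjusted p 0.0590 to 0.160), which left 2 higher without either immature replicate. Ta24513 (AT5G52280) had 135, 128 and 122 counts in mature nectaries, against 712, 607 and 602 in immature nectaries, a mean 4.99-fold lower (-2.31, SE 0.13, adjusted p = 6.42e-06). The stages lay far apart.

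Of the 4 other loci described as actin binding, 1 was higher and 3 overlapped between the stages. Of all tested loci, 28.4% were higher, and the stages did not overlap for 70.1%. The locus that was higher was Ta10995 (AT1G52080), of an actin binding protein family, with 645, 669 and 650 counts in mature and 190, 194 and 247 in immature nectaries (3.11-fold, log2 fold change 1.64, SE 0.14, adjusted p = 3.82e-05). The most abundant of this group, Ta00718, matches a gene known in Arabidopsis as a formin (AT5G07740) and had 677, 554 and 727 counts in mature and 650, 652 and 693 in immature nectaries, which overlap (-0.04, SE 0.14, adjusted p = 0.841). Ta13056, an actin cross-linking protein, had 264, 208 and 255 counts in mature and 139, 440 and 166 in immature nectaries, so that 1 immature sample stood above all others (0.15, SE 0.39, adjusted p = 0.746), and it passed without immature replicate 2 (0.66, adjusted p = 0.0252). Both tropomyosin-related loci overlapped between the stages too, the more abundant Ta12714 with 282, 235 and 245 counts in mature and 277, 284 and 310 in immature nectaries (-0.19, SE 0.14, adjusted p = 0.235). Of the 7 loci matched by letters alone, 4 were lower and none was higher, against 35.9% and 28.4% of all tested loci. They are enzymes and other proteins with no tie to actin in their descriptions, for example Ta16557, an oxidoreductase acting on aldehydes, with 85, 72 and 93 counts in mature and 376, 387 and 419 in immature nectaries (-2.23, SE 0.15, adjusted p = 1.21e-05). Ta16557 met the minimum for the test only through the immature samples. The most abundant of the 7, the ethylene-forming enzyme Ta05374, had 579, 389 and 615 counts in mature and 388, 537 and 606 in immature nectaries (0.04, SE 0.23, adjusted p = 0.876).

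The mature samples differed strongly in Ta19673, which matches a pectin methylesterase of Arabidopsis pollen. It had 13877, 1583 and 4424 counts in mature and 73, 215 and 81 in immature nectaries, so loci that shared this spread over the mature samples were separated from the rest. A locus was taken to follow Ta19673 when the slope of its deviations on the log2 scale against those of Ta19673 was at least 0.7 over the 3 mature samples, with the samples in the same order. This is a description over 3 points and no test. Ribosomal RNA took 27.5%, 62.9% and 39.8% of the counts of the mature samples, the reverse order of Ta19673, and its part in the spread was not tested.

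Of the 77 tested loci of the set, 0 met this rule, against 2.13% of all 11780 tested loci. Of the 2 untested loci, 1 met it. This was Ta15506 (AT5G41780), described as myosin heavy chain-related, with 172, 25 and 60 counts in mature and 2, 5 and 3 in immature nectaries. The stages did not overlap, and its slope was 0.87. Its mean was too low for the test, and it reached the table only through mature replicate 1, so no test of the stages is given. The slope over the 3 immature samples, which the rule did not use, was 0.56, from 2 to 5 counts. The next locus below the bound was actin 1 (Ta02129) with 0.44, followed by Ta06745, matching a protein of the meiotic synaptonemal complex, with 0.40 and the formin Ta24497 with 0.39. Formin 3 had a slope of 0.35 and actin-12 of 0.12. No tested locus of the set reached 0.5, which 4.13% of all tested loci did. The median slope was 0.09, against 0.11 over all tested loci, and 25 of the 77 tested loci (32.5%) had the 3 samples in the order of Ta19673, against 43.9% of all. In 52 of the 79 loci mature replicate 2 held the lowest mature value.

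On the wider list, the LIM locus Ta07214 also followed Ta19673, and it was singled out after its values were seen. Its match, AT2G45800, is a LIM protein that bundles filaments in Arabidopsis pollen. It had 206, 33 and 88 counts in mature and 2, 6 and 3 in immature nectaries, with a slope of 0.83. It is 1 of the 5 loci counted as higher on that list, but it passed the minimum only through the mature samples and fell below it without mature replicate 1, so its difference is given as a description with no test.

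**Figure D5:**
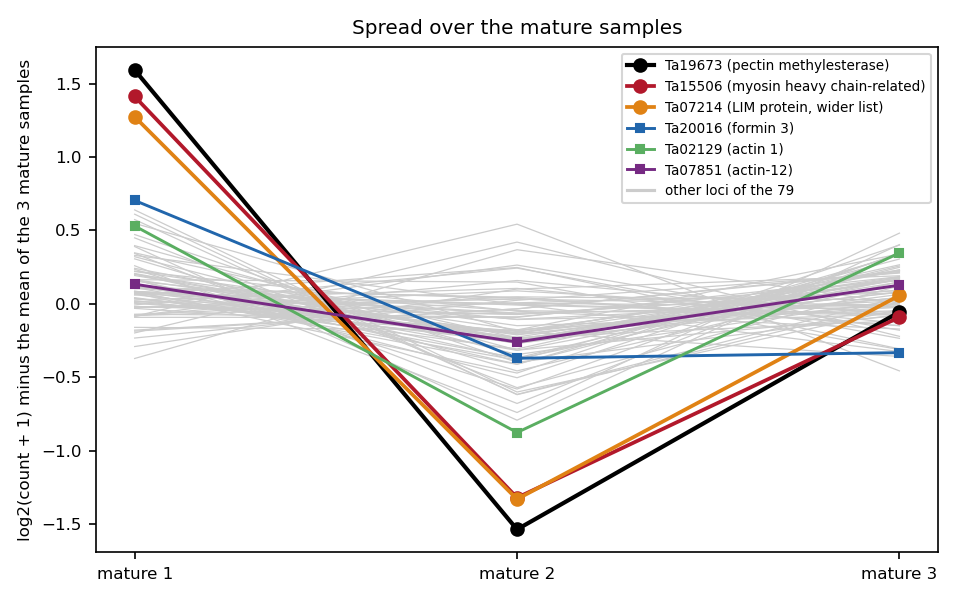
Deviation of log2(count + 1) from the mean of the mature samples (y axis) in mature samples 1, 2 and 3 (x axis). Grey lines are loci of the set, and thick lines are Ta19673, Ta15506 (slope 0.87) and the LIM locus Ta07214 (0.83), while formin 3 (0.35), actin 1 (0.44) and actin-12 (0.12) lie closer to 0.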

How the data were processed

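RNA-seq was run on 3 mature and 3 immature samples of pennycress nectaries. The authors assembled 50 bp paired-end reads with Trinity, added an existing transcriptome of the species and assigned reads to contigs by blastn at an E-value of 1e-05. The deposited scores are these read counts after upper-quartile normalization, given by the authors without decimals, so no count model was used. Their table also holds the authors' own comparisons, a ratio and a DESeq p-value made by the authors for each contig, which were not used. All 16074 contigs of the table reach at least 101 normalized counts in some sample, and no column belonged to other samples.

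For each predicted protein, the values of its contigs were added up, and names come from the contig with the highest mean. The sums were tested as log2(sum + 1) with limma 3.58.1 (R 4.3.3), with a mean-variance trend and no replicate block, over the 11780 loci whose mean reached 100 in 1 of the stages or both, and p-values were Benjamini-Hochberg adjusted over all of them. A locus could meet the mean of 100 through 1 stage alone. This holds for the named loci with a mean below 100 in the other stage and limits what their p-values show. Fold changes on this scale understate changes of low loci. An exact permutation test of 3 against 3 samples cannot go below 0.1 and was not used. Depth, as reads in the contigs of the deposited data, was estimated from the gaps between low values. On simulated data limma called 31 of 50 loci with a simulated 1.5-fold change and 50 of 50 with a 2-fold change. The simulation gave every locus the same dispersion and every sample the same depth, and few of its loci changed. It therefore checks the fit but does not give its power in these samples. Python 3.11.15 with pandas 2.3.3, numpy 2.4.6 and matplotlib 3.10.9 served for tables and plots. Counts were not divided by length, so levels of different loci are not compared per length.

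The loci, lists, role groups and the slope bound were chosen with earlier results of these data known. Loci named with full values are those following Ta19673, up to 8 others in each direction with the largest called change and no overlap, the most abundant of each role group and, from the wider list, up to 3 in each direction with the smallest adjusted p. Further loci (among them Ta02129, Ta13056, Ta16104, Ta18149, Ta11925, Ta14762, Ta16481, Ta03511, Ta13034 and Ta07214) and the profilin contigs were named after their values were seen. Alternatives were other pseudocounts, filters, scalings and moderation, the most abundant contig, a replicate block, a ratio threshold, other slope bounds and leaving out each sample.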

Additional observations from a re-analysis of the deposited data

How the results depend on the processing

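The counts of called loci stayed within 1.5 times of 16 higher and 23 lower in every alternative except those with fewer loci or an added threshold. A minimum mean of 500 left 26 tested loci, of which 10 were higher and 4 lower, and a ratio above 2 or below 0.5 left 4 higher and 14 lower. Leaving out 1 sample at a time gave 12 to 21 higher and 18 to 28 lower. A slope bound of 0.9 left 0 loci following Ta19673, and all other alternatives left 1. The 29 loci with a fit that were named as largest changes or as most abundant of their group include some without a call. None of these 29 reversed, and 3 lost their call in some alternative (Ta00952, Ta08946 and Ta12637). Of all 39 called loci of the set, 12 lost the call in at least 1 alternative. Medians over all tested loci were -0.26 with scaling to the total outside ribosomal RNA and organelles, 0.03 with median of ratios scaling and 0.04 with quantile normalization. With the replicate number as a block, 16 were higher and 25 lower, all 39 calls were shared, and Ta02129 (-0.79, adjusted p = 0.0269) and Ta02482 (-0.59, adjusted p = 0.0136) were lower in addition. The numbers name no shared plants, and the deviations of same-numbered samples correlated by -0.07, 0.01 and 0.20 for numbers 1, 2 and 3, so they were not treated as pairs. Depth limits the loci with few counts most, and mature replicate 2 had the fewest reads outside ribosomal RNA and organelles (4.32 M).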
